A study of Rattus norvegicus with 12 samples.

Results

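Ccl3, Ccl4 and Ccl5 are genes for small secreted chemokines, followed here by their identifiers ENSRNOG00000011205, ENSRNOG00000011406 and ENSRNOG00000010906, which are 3 of the 32754 gene rows in each deposited count file. All 3 were named by identifier, with no measured value in the rule, but they were chosen with earlier results of these data known. They passed the filter on low counts in each fit, but in the blood fit Ccl3 and Ccl4 did so only through the transgenic libraries. The samples were sorted CD4+ T cells with reactivity to β-synuclein, a neuronal protein, from rats of the strain LEW/Crl. In wild-type blood the cells carried the genotype wt. In transgenic blood, transgenic meninges and transgenic parenchyma they carried b-syn TCR Tg, a transgenic T cell receptor for that protein, and were recovered from the circulation, from the membranes of the brain and from the brain tissue itself. All groups were described as sampled at day 3 after intravenous transfer, and each had 3 libraries. The promoter of the transgene, the age of the animals, the hosts and any pooling of animals are not stated in the labels used.

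Chemokines direct the movement of leukocytes by binding receptors on their surface. The proteins of Ccl3 (MIP-1α) and Ccl4 (MIP-1β) are typically made soon after a T cell is stimulated through its antigen receptor. Both attract other leukocytes. The gene of CCL5 (RANTES), which attracts T cells and monocytes, is typically expressed late after activation and kept on in effector and memory T cells. Microglia and macrophages also make CCL3 and CCL4. In the RefSeq annotation of the rat assembly GRCr8 the 3 genes lie on chromosome 10. Ccl3 and Ccl4 are neighbouring protein-coding genes there, and Ccl9 and Ccl6 lie between Ccl5 and Ccl3. A long non-coding RNA gene, LOC103693406, overlaps Ccl3 in that annotation, and the strand setting of the counting is not stated in the labels used, so that reads of the pair could not be told apart if this overlap also holds in the build used.

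Library totals ran from 29959282 to 38601400 counts in wild-type blood, from 16848739 to 21229957 in transgenic blood, from 16643832 to 32843166 in the meninges and from 19054156 to 27761421 in the parenchyma. Levels are counts scaled to a library of 1000000 counts (CPM), which are not corrected for gene length, so levels of different genes are not ranked against each other. One library stood apart. In parenchyma replicate 3, 420 of 11551 genes were at least 5 times as high as in both other parenchyma libraries, against 2 such genes for replicate 1 and 1 for replicate 2. None of the chemokines was among those 420 genes. As these were 3.64% of the 11551, the absence of 3 genes says little. Ccl3 and Ccl4 were lower in replicate 3 than in the other parenchyma libraries, and Ccl5 was highest in it (634 CPM, against 596 CPM in replicate 1 and 505 CPM in replicate 2). A set of 77 genes was picked for at most 3 counts in each transgenic blood library and at least 5 CPM on average in the parenchyma. Those 420 genes were not left out of it. The average includes replicate 3, so genes high only there could enter, and the shares in the parenchyma partly follow from the choice. The 77 genes took 0.317% of the counts of parenchyma replicate 3, against 0.0581% in replicate 1 and 0.0181% in replicate 2. In the meninges, which did not enter the choice, they took 0.00469% to 0.0111%. Which cells these transcripts came from was not tested. Titles of the parenchyma samples carry the digit 4 where those of the other 9 samples carry 3. If the digit marks a day, tissue and day cannot be told apart. The files do not pair identifiers with gene names, so the labelled cell type was not checked against its markers, and whether transcripts of other brain cells contributed was not tested. In these bulk samples, fewer cells that make a transcript and less of it per cell cannot be told apart.

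Ccl3 and Ccl4 were close to absent in wild-type blood, low in transgenic blood and high in both brain compartments, and Ccl5 was already high in transgenic blood and did not pass the test between tissues. For Ccl3, wild-type blood had 1.24, 0.0823 and 0.20 CPM in replicates 1, 2 and 3, and transgenic blood had 3.53, 9.05 and 5.88 CPM. The meninges had 57.9, 188 and 129 CPM and the parenchyma 227, 258 and 165 CPM. The lowest meningeal library was thus 6.40 times the highest blood library, and only meninges and parenchyma overlapped. The share of all genes whose groups do not overlap was not counted, so overlap is only described here. In the order of the means, wild-type blood (0.509 ± 0.639 CPM, SD, n = 3) was followed by transgenic blood (6.15 ± 2.77 CPM), meninges (125 ± 65.0 CPM) and parenchyma (216 ± 47.4 CPM).

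The levels of Ccl4 separated all 4 groups. Wild-type blood had 0.881, 0.137 and 0.167 CPM in replicates 1, 2 and 3, and transgenic blood 4.62, 6.70 and 6.23 CPM. The meninges had 267, 575 and 514 CPM and the parenchyma 1674, 1176 and 905 CPM. No 2 groups overlapped, and the lowest parenchyma library was 1.57 times the highest meningeal library. How many of all genes separate the groups in this way was not counted. The means were 0.395 ± 0.421 CPM in wild-type blood, 5.85 ± 1.09 CPM in transgenic blood, 452 ± 163 CPM in the meninges and 1252 ± 390 CPM in the parenchyma (SD, n = 3).

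Ccl5 had a different profile, with 1 step between the genotypes and none that passed the test between tissues. Wild-type blood had 95, 82.7 and 65.9 CPM in replicates 1, 2 and 3, and transgenic blood 311, 488 and 553 CPM. The meninges had 439, 601 and 628 CPM and the parenchyma 596, 505 and 634 CPM. All 3 transgenic groups overlapped each other, and each lay above wild-type blood without overlap, which was not counted over all genes. The means were 81.2 ± 14.6 CPM in wild-type blood, 451 ± 125 CPM in transgenic blood, 556 ± 102 CPM in the meninges and 578 ± 66.0 CPM in the parenchyma (SD, n = 3).

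**Figure D1:**
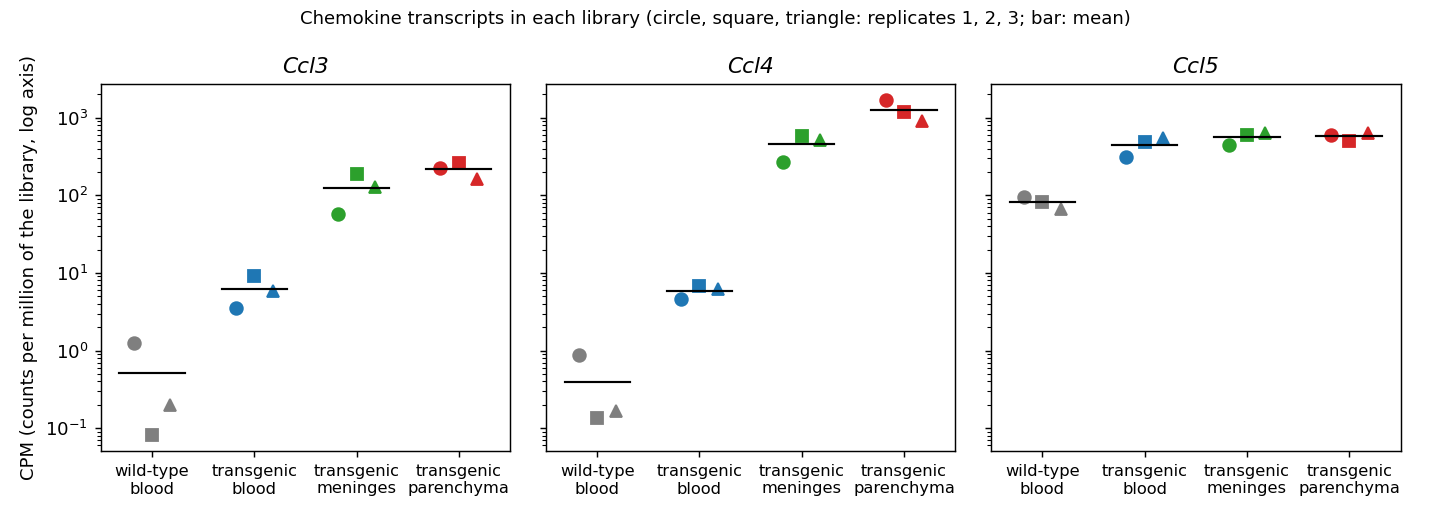
Level of each chemokine transcript in each of the 12 libraries, in CPM on a log axis; symbols are replicates 1, 2 and 3 and bars are group means. Ccl3 and Ccl4 climb from wild-type blood to transgenic blood and again to the brain compartments, whereas Ccl5 stands between 311 and 634 CPM in all transgenic libraries.

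The blood libraries show what differed between transgenic and wild-type cells before any comparison of tissues. All 3 chemokines were higher in transgenic blood, where 13.1% of all 11618 tested genes were called higher (edgeR's quasi-likelihood test, Benjamini-Hochberg adjusted p under 0.05). Ccl4 was 13.9-fold higher (log2 fold change 3.80, SE 0.54, adjusted p = 0.00106). Ccl3 was 11.3-fold higher (log2 fold change 3.50, SE 0.69, adjusted p = 0.00579). Ccl5 was 5.48-fold higher, with the smallest error of the 3 (log2 fold change 2.45, SE 0.23, adjusted p = 0.000124). Ranked from the highest log2 fold change of all tested genes, Ccl4 was at 31, Ccl3 at 40 and Ccl5 at 128. As Ccl3 and Ccl4 entered this fit only through the transgenic libraries, their p-values and ranks here are no independent support.

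The sizes for Ccl3 and Ccl4 in blood rest on few counts in wild-type cells. Both genes passed the filter of that fit only through the transgenic libraries, the group where they were high. Replicate 1 held 48 of the 57 wild-type counts of Ccl3, and replicates 2 and 3 held 3 and 6. For Ccl4 it held 34 of 44 counts, and the other replicates 5 each. The exact Poisson 95% interval of Ccl3 in replicate 1, which covers counting error only, was 0.917 to 1.65 CPM, above those of replicate 2 (0.0170 to 0.240 CPM) and replicate 3 (0.0735 to 0.436 CPM). Without wild-type blood replicate 1 the log2 fold change was 5.43 for Ccl3 (adjusted p = 0.000316) and 5.22 for Ccl4 (adjusted p = 4.39e-05), and with limma-voom that of Ccl3 was 4.23. Leaving out each of the other 5 blood libraries gave Ccl3 values from 2.99 (without wild-type replicate 2) to 3.77 and Ccl4 values from 3.38 (without wild-type replicate 2) to 3.94, and each kept an adjusted p under 0.05. The ratio of Ccl5 to Ccl3 counts in a library, which no scaling can alter, was 76.4, 1005 and 329 in wild-type replicates 1, 2 and 3 and 88.1, 53.9 and 94.1 in transgenic blood, and these overlapped (exact permutation test, two-sided, p = 0.30, adjusted p = 0.45 over 3 ratios). The ratio of Ccl5 to Ccl4 was 108, 603 and 395 against 67.4, 72.8 and 88.7, without overlap (exact permutation p = 0.10, the smallest that 3 against 3 allows, adjusted p = 0.30).

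Levels of Ccl3 and Ccl4 were far higher in the meningeal libraries than in those of transgenic blood. Both were called higher, and 4.76% of the 11809 genes tested were called in that direction. Ccl4 rose 80.2-fold (log2 fold change 6.33, SE 0.37, adjusted p = 2.91e-05), with a 95% interval of 45.2 to 142-fold. Ccl3 rose 21.1-fold (log2 fold change 4.40, SE 0.46, adjusted p = 0.000558), with an interval of 10.3 to 43.0-fold. By log2 fold change they stood at 28 and 71 from the top. For Ccl5 the ratio of meninges to blood was 1.28 (log2 fold change 0.36, SE 0.21, adjusted p = 0.363). Its interval, 0.923 to 1.78-fold, does not reach the intervals of Ccl3 and Ccl4. The median log2 fold change of all genes was 0.0011.

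Differences of similar direction separated the parenchyma from blood. Again 2 of the 3 chemokines were called higher, beside 18.7% of the 11809 genes. Ccl4 rose 213-fold (log2 fold change 7.73, SE 0.39, adjusted p = 2.67e-06; 95% interval 116 to 390-fold). Ccl3 rose 35.1-fold (log2 fold change 5.13, SE 0.47, adjusted p = 6.35e-05; 95% interval 16.8 to 73.1-fold). Ccl5 had a ratio of 1.28 (log2 fold change 0.35, SE 0.21, adjusted p = 0.224; 95% interval 0.920 to 1.77-fold). Without parenchyma replicate 3 the log2 fold changes of Ccl4, Ccl3 and Ccl5 were 7.91, 5.29 and 0.27. The blood libraries are shared with the comparison of the meninges, so the 2 sets of values are not independent.

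Between parenchyma and meninges the chemokines differed from each other in outcome. Ccl4 was 2.65-fold higher in the parenchyma (log2 fold change 1.41, SE 0.29, adjusted p = 0.0131; 95% interval 1.69 to 4.17-fold), and 8.0% of all tested genes were called higher. Ccl3 had a ratio of 1.66 that did not pass the test (log2 fold change 0.73, SE 0.39, adjusted p = 0.236; 95% interval 0.909 to 3.04-fold). Ccl5 had a ratio of 0.997 (adjusted p = 0.992; 95% interval 0.719 to 1.38-fold). The interval of Ccl3 holds the value found for Ccl4, so that the missing call does not show a difference between them. Without parenchyma replicate 3, the log2 fold change was 1.59 for Ccl4 (adjusted p = 0.00848) and 0.89 for Ccl3 (adjusted p = 0.20).

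**Figure D2:**
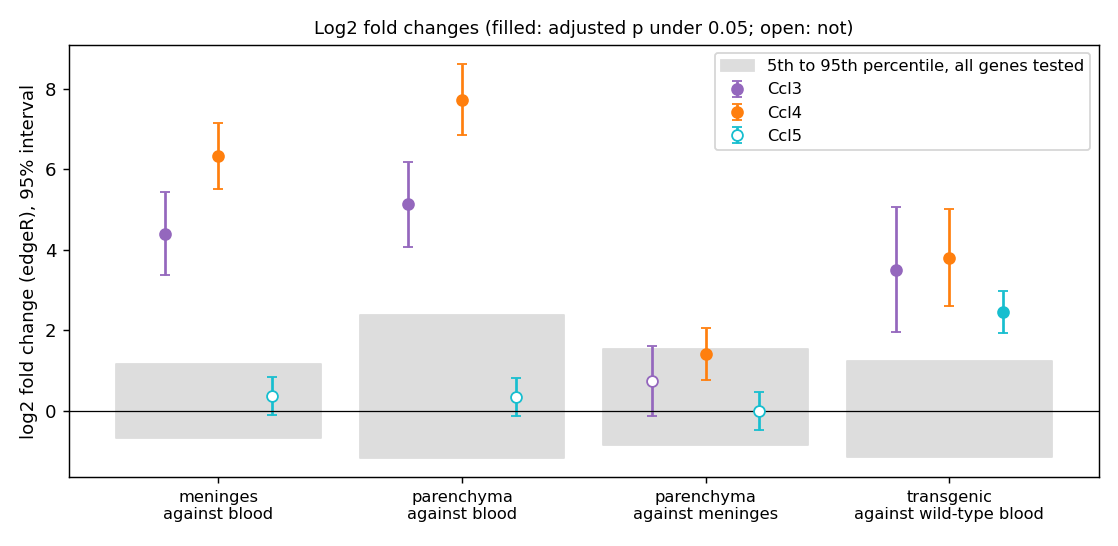
Log2 fold changes of the 3 chemokines in the 4 comparisons with 95% intervals (edgeR); filled points have an adjusted p under 0.05, and grey boxes span the 5th to 95th percentile of all genes tested. Ccl4 and Ccl3 stand above the box in both comparisons of a brain compartment with blood, Ccl5 within it, and all 3 stand above it in transgenic against wild-type blood.

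Whether the chemokines kept their proportions was asked from ratios of counts within each library, in which library size cancels. Gene length cancels when a ratio is compared between groups. Ccl4 counts per Ccl3 count were 1.31, 0.741 and 1.06 in transgenic blood replicates 1, 2 and 3, and 0.708, 1.67 and 0.833 in wild-type blood. They were 4.62, 3.06 and 4.0 in the meninges and 7.37, 4.57 and 5.50 in the parenchyma. Relative to transgenic blood, the geometric mean of the ratio was 3.81 times as high in the meninges and 5.65 times as high in the parenchyma. The ratio differed across the transgenic tissues (exact permutation test over 1680 assignments, p = 0.00714, adjusted p = 0.00714 over 3 ratios). Meninges and parenchyma overlapped in it (exact permutation p = 0.20, adjusted p = 0.20 over 9 pairs of tissue and ratio).

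The proportion of Ccl5 to the others was lower in the brain compartments than in blood. Per Ccl3 count, transgenic blood had 53.9 to 94.1 Ccl5 counts, the meninges 3.20 to 7.58 and the parenchyma 1.96 to 3.85 (exact permutation p = 0.00714, adjusted p = 0.00714). Meninges and parenchyma overlapped. Per Ccl4 count, transgenic blood had 67.4 to 88.7 Ccl5 counts, the meninges 1.05 to 1.64 and the parenchyma 0.356 to 0.700. No tissues overlapped in this ratio, and the exact permutation p of 0.00357 (adjusted p = 0.00714) is the smallest that 3 groups of 3 allow. Single pairs of tissues, at 3 libraries against 3, cannot go below 0.10, and the 7 pairs of tissue and ratio without overlap all gave that value (adjusted p = 0.129 over 9 pairs).

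**Figure D3:**
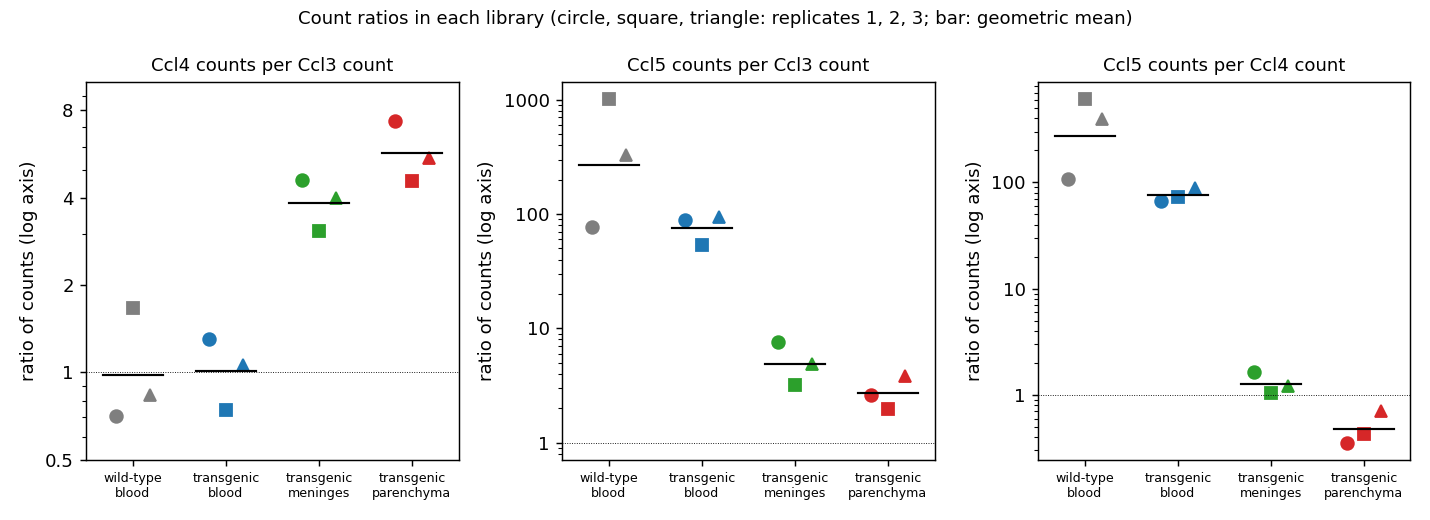
Ratio of the counts of each pair of chemokines in each library, on a log axis; symbols are replicates and bars are geometric means. Ccl4 per Ccl3 count rises from about even in blood to between 3.06 and 7.37 in the brain compartments, and Ccl5 per Ccl4 count falls below 1 in all 3 parenchyma libraries.

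Together the 3 genes took 0.00821% ± 0.00154 of the counts in wild-type blood and 0.0463% ± 0.0128 in transgenic blood. They took 0.113% ± 0.0323 in the meninges and 0.205% ± 0.0407 in the parenchyma (SD, n = 3). Ccl5 held 97.4% ± 0.494 of these summed counts in transgenic blood, 50.3% ± 6.73 in the meninges and 29.0% ± 7.15 in the parenchyma. Ccl4 held 1.29% ± 0.174, 39.2% ± 3.76 and 60.3% ± 6.96, in the same order. Ccl3 held 1.31% ± 0.419 in transgenic blood, 10.5% ± 3.11 in the meninges and 10.7% ± 2.27 in the parenchyma. Of the summed counts, Ccl5 was the largest part in all 3 meningeal libraries and Ccl4 in all 3 parenchyma libraries. Counts are not corrected for gene length, so this does not rank the genes by amount of transcript.

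**Figure D4:**
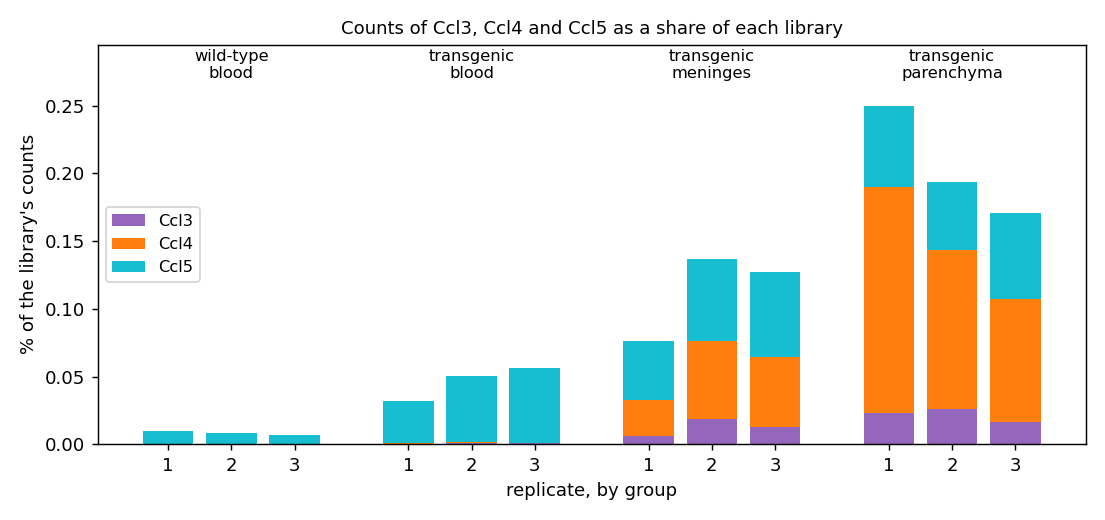
Counts of Ccl3, Ccl4 and Ccl5 as a percentage of all counts in each library, stacked; numbers under the bars are replicates. The part of Ccl5 is of similar height in the transgenic groups, and the part of Ccl4 averages 1.29% of the 3 genes' counts in transgenic blood and 60.3% in the parenchyma.

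Spread between replicates is given as the coefficient of variation, which is imprecise at 3 libraries, and differences in it were not tested. For Ccl3 the coefficient of variation was 126% in wild-type blood, 45.0% in transgenic blood, 52.1% in the meninges and 21.9% in the parenchyma. For Ccl4 it was 107%, 18.7%, 36.0% and 31.1% in the same groups, and for Ccl5 18%, 27.8%, 18.4% and 11.4%. The values of Ccl3 and Ccl4 in wild-type blood rest on 57 and 44 counts, most of them in replicate 1. In these libraries the coefficient was lower in the parenchyma than in transgenic blood for Ccl3 and Ccl5, and higher for Ccl4. Within the meninges, replicate 1 was lowest for all 3 genes. In the parenchyma the order of libraries differed between genes: replicate 1 was highest for Ccl4, replicate 2 for Ccl3 and replicate 3 for Ccl5.

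The pattern over the 12 libraries was compared with that of 9144 genes of at least 5 CPM on average, by Pearson's correlation of log2(CPM + 0.5). The libraries fall into 4 groups, so r describes mainly the steps between groups and carries no test. Ccl3 and Ccl4 were each other's closest gene among all these (r = 0.992). Ccl5 ranked 459 in likeness to Ccl3 (r = 0.860) and 750 in likeness to Ccl4 (r = 0.820). After the chemokines themselves, ENSRNOG00000009296 was the closest to both Ccl4 (r = 0.990) and Ccl3 (r = 0.981). Its own steps were small, from 9.74 ± 0.773 CPM in wild-type blood and 15.0 ± 0.408 CPM in transgenic blood to 30.9 ± 4.03 CPM in the meninges and 36.1 ± 2.78 CPM in the parenchyma (SD, n = 3). For Ccl5 the closest was ENSRNOG00000001653 (r = 0.979), at 3.04 ± 0.142 CPM in wild-type blood and at 34.4 ± 5.59, 38.7 ± 3.94 and 37.4 ± 4.77 CPM in transgenic blood, meninges and parenchyma. Above an r of 0.95 were 50 genes for Ccl3, 97 for Ccl4 and 7 for Ccl5, where each count for Ccl3 and Ccl4 includes the other.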

How the data were processed

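RNA of 12 libraries of sorted CD4+ T cells was measured. The authors deposited raw read counts for each gene, as whole numbers, in 1 file for each library. Per the submitters' processing notes, STAR 2.5 and featureCounts 1.5.0-p1 are named for build rn6, beside DESeq2 1.14.1; neither their roles nor the strand setting or annotation is stated in the labels used. Per the labels' protocols, kits of 2 makes (TruSeq and NEBNext) were in use and no library is tied to either, so a kit that differed between groups cannot be told apart from the group. Groups and replicate numbers came from genotype, tissue and title. Nothing says that replicates were separate animals. The p-values set group differences against the spread between these libraries, which can be technical, so they may not extend to other animals. No 2 replicates of a group agreed within sampling noise (chi-square per degree of freedom at least 13.9).

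CPM used file totals. Tests used edgeR 4.0.16 in R 4.3.3 (filterByExpr with a minimum count of 10, TMM scaling, two-sided quasi-likelihood F test, Benjamini-Hochberg adjustment over all genes tested). They ran on the 9 transgenic libraries for tissues and the 6 blood libraries for genotypes. The SE was the log2 fold change divided by the square root of F, and 95% intervals used it with the t distribution of the fit. Ratios added 0.5 to each count and were compared by an exact permutation test of the variance of group means (for 2 groups, of their difference, two-sided). Pairs of tissues by ratio, the limit of 0.95 on r and the count of genes 5 times above both other libraries (among genes with at least 50 counts in the group) were added after the data were seen. So was the set of 77 genes nearly absent in transgenic blood. The genes named beside the members are the closest to each by r among genes past the filter, at most 2 in all.

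The members and lists were chosen with earlier results of these data known. The 15 gene lists by symbol (153 symbols), cell type markers included, are not analysed here, since 0 lines of the RefSeq gene table held a rat Ensembl identifier. By symbol, 3 of 3 members were in that table and 0 of 3 in the promoter table, so no promoter motif was searched. Alternatives were DESeq2 1.42.0, limma-voom (limma 3.58.1), DESeq2 size factors, no filter, other sets of libraries, a replicate block and leaving out each library.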

Additional observations from a re-analysis of the deposited data

How the results depend on the processing

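The 8 called fold changes of the chemokines kept their direction and an adjusted p under 0.05 in every alternative run, and the 4 that were not called were not called in any. The exceptions in direction were small: Ccl5 in parenchyma against meninges had a log2 fold change of -0.0042, which was 0.0031 with limma-voom, 0.015 with the replicate block, and from -0.16 to 0.084 when each library was left out. The ratio of Ccl3 to Ccl4 in transgenic against wild-type blood differed by -0.04 on the log2 scale, and by -0.38 to 0.19 when each library was left out. Across the transgenic tissues, the 3 ratios had an adjusted p of at most 0.0393 when each library was left out; their difference is that of parenchyma and blood, so leaving out a meningeal library cannot move it. The ratios between blood genotypes could not pass the threshold in any setting, so that their missing calls say nothing about stability. Same-numbered transgenic libraries correlated between -0.32 and 0.29 in their deviations from the group means, and those of the blood genotypes between -0.10 and 0.33. For blood and meninges they had 0.27, 0.29 and 0.05, against -0.26 to 0.05 for differently numbered ones. For meninges and parenchyma the ranges were -0.32 to 0.02 against -0.30 to 0.38, and for blood and parenchyma -0.15 to 0.02 against -0.06 to 0.17. Among the tissues, same-numbered values stood mostly above the others only for blood and meninges, and this was not tested. The highest value, 0.38, belonged to differently numbered libraries of meninges and parenchyma. The labels state no pairing, and the numbers were not taken to pair samples. The replicate block gave Ccl4 a log2 fold change of 7.76 in parenchyma against blood and changed no call.

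The count of all called genes depended on the libraries and the tool in some comparisons. In parenchyma against blood 4143 were called, 3298 to 4416 when each library was left out and 3336 to 4464 in the other alternatives. In meninges against blood 769 genes were called, 1338 with DESeq2, 1255 in a fit of only these groups, and 346 to 606 when each library was left out. In parenchyma against meninges 1828 were called, and 730 to 2159 when each library was left out. In transgenic against wild-type blood 3002 were called, and 1789 to 2906 when each library was left out. Depth limits Ccl3 and Ccl4 in wild-type blood, where 3 counts are 0.0777 to 0.10 CPM.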

Other observations

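Wild-type blood replicate 1 was set apart by Ccl3 more than by most genes. Of 11353 genes with at least 50 counts over the wild-type blood libraries, 4 were at least 5 times as high in replicate 1 as in both other libraries, and Ccl3 was 1 of them. Replicates 2 and 3 had 2 and 4 such genes. Ccl4, with 44 counts, was below that minimum. In the parenchyma the same count was 420 genes for replicate 3, 2 for replicate 1 and 1 for replicate 2. None of them was a chemokine described here, which says little at a share of 3.64% of genes for replicate 3. In the meninges it was 17, 0 and 1 gene for replicates 1, 2 and 3.

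The ratio of Ccl4 to Ccl3 was highest in replicate 1 and lowest in replicate 2 in each of the 3 transgenic groups (1.31 and 0.741 in blood, 4.62 and 3.06 in the meninges, 7.37 and 4.57 in the parenchyma). In wild-type blood the order was the reverse, with 0.708 in replicate 1 and 1.67 in replicate 2, at few counts. The order in the transgenic groups was noticed after the values were seen and was not tested, and the labels do not say that equal numbers mark the same animal.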
